A study of Danio rerio with 12 samples.

Results

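Juvenile zebrafish ovaries expressed a set of 150 genes at levels that no juvenile testis in the series reached. The set was selected on the counts themselves. Each gene's count was divided by the total of its gonad and scaled to counts per 1000000 (CPM). Among the 10663 genes at 5 CPM or more in every ovary, of 32520 genes in the table, the 150 members have the largest ratio of the lowest ovary to the highest testis, with 1 CPM added to each. The excess in ovaries over testes is therefore how the members were chosen, and it is described here without a test. The ratio does not use the difference between the ages, so age was tested. It does turn on the lowest ovary and the highest testis, so the age comparisons are not independent of the choice.

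Single gonads were dissected from zebrafish of the AB strain, and all fish carried the germ cell reporter Tg(piwil1-egfp-nos3UTR)ihb327Tg. The 4 groups were 25 dpf ovary (days post fertilization, 2 gonads), 30 dpf ovary (3), 25 dpf testis (4) and 30 dpf testis (3). RNA from each gonad was amplified as cDNA before the library was made, and nothing in the labels ties gonads to tanks, parents or library batches, so p-values measure the spread between these gonads only. The deposited columns are named by gonad size, and big was read as ovary and small as testis from the authors' own usage and from the matching number of gonads of each size and age, so an error in that reading would exchange the sexes throughout.

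An oocyte stores what the embryo will use before its own genome is switched on. It accumulates messenger RNAs that are kept untranslated, proteins that later drive meiotic maturation, histones, enzymes and transcription factors, and it surrounds itself with an envelope of zona pellucida glycoproteins. Zebrafish pass through a juvenile stage in which the gonad of both sexes can hold early oocytes, and in future males these oocytes are lost as the testis forms. In whole gonads, more oocytes and more RNA per oocyte cannot be told apart, and this holds for every level below.

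Each gonad had 4471588 to 5331223 counts, so that 3 counts correspond to 0.563 to 0.671 CPM. The summed level of 6 germ cell markers was 3487 to 4564 CPM in ovaries and 1886 to 2457 CPM in testes, and 4 of the 6 were higher in every ovary than in every testis. *PIWIL1* alone was at 1799 to 2682 CPM in ovaries and 1067 to 1343 CPM in testes. The exceptions were *DAZL*, at 319 to 473 CPM in ovaries and 200 to 360 CPM in testes, and *nanos2*, at 0 to 1.75 and 1.12 to 5.63 CPM. Of 8 testis somatic markers, *HSD11B2* and *ptgdsb.1* were higher in every testis than in every ovary. *amh*, the Sertoli cell hormone, was at 549.6 and 1119 CPM in 30 dpf testes 2 and 3, but at 9.79 to 38.8 CPM in the other testes against 11.5 to 29.9 CPM in ovaries. Of 9 ovary somatic markers listed, only 4 matched by symbol, *lhcgr*, *hsd17b1*, *inha* and *FSHR*. Their sums overlapped between the sexes, at 26.2 to 158 CPM in ovaries and 57.3 to 301 CPM in testes. *inha* alone was at 293.8 CPM in 30 dpf testis 3, the highest sum. *foxl2a*, *foxl2b*, *cyp19a1a*, *inhbaa* and *wnt4a* did not match, so these sums do not show whether ovary somatic markers separate the sexes. Markers of other tissues stood apart in 25 dpf testis 1 (muscle, 8088 CPM) and in 25 dpf testis 2 (pancreas, 5120 CPM, intestine, 838 CPM, and liver, 5439.7 CPM). Such markers were not confined to these 2 testes. Liver markers summed to 1954 CPM in 25 dpf testis 4 and 1294 CPM in 30 dpf testis 2, against 251 to 911 CPM in the remaining testes. In 30 dpf testis 2 *tfa* alone was at 1255 CPM, while *apoa2* was at 32.1 CPM, its lowest level in any testis. Pancreas markers summed to 2517 CPM in 30 dpf testis 2, against 328 to 1005 CPM in the remaining testes. Without 25 dpf testes 1 and 2, 147 of the 150 members were still chosen by the same rule. The rule uses only the highest testis, and each of these testes was the highest for 2 members. Leaving them out could therefore change the set little, and it does not test the part of other tissue.

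Together the members took up 4.17% and 6.22% of all counts in 25 dpf ovaries 1 and 2, and 11.8%, 10.7% and 7.37% in 30 dpf ovaries 1, 2 and 3. In the 25 dpf testes they took up 0.219%, 0.156%, 0.550% and 0.950% (testes 1 to 4), and in the 30 dpf testes 0.205%, 0.828% and 0.179% (testes 1 to 3). Ovaries and testes did not overlap, as the rule requires, but neither group was uniform. The fold of the mean ovary over the mean testis had a median of 18.3 over the members, from 4.39 for *pfkfb1* to 104 for ENSDARG00000095486, and was 10 or more for 126 of them. Every ovary above every testis was in itself common, since 13.8% of the 10663 eligible genes met that alone. No member was at or under 3 counts in all 7 testes, and 109 were over 3 counts in each of them. The members were thus low in testes, with a median gene at 3.66 to 21.4 CPM per testis against 105 to 331 CPM per ovary, and nearly always detected there.

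**Figure D1:**
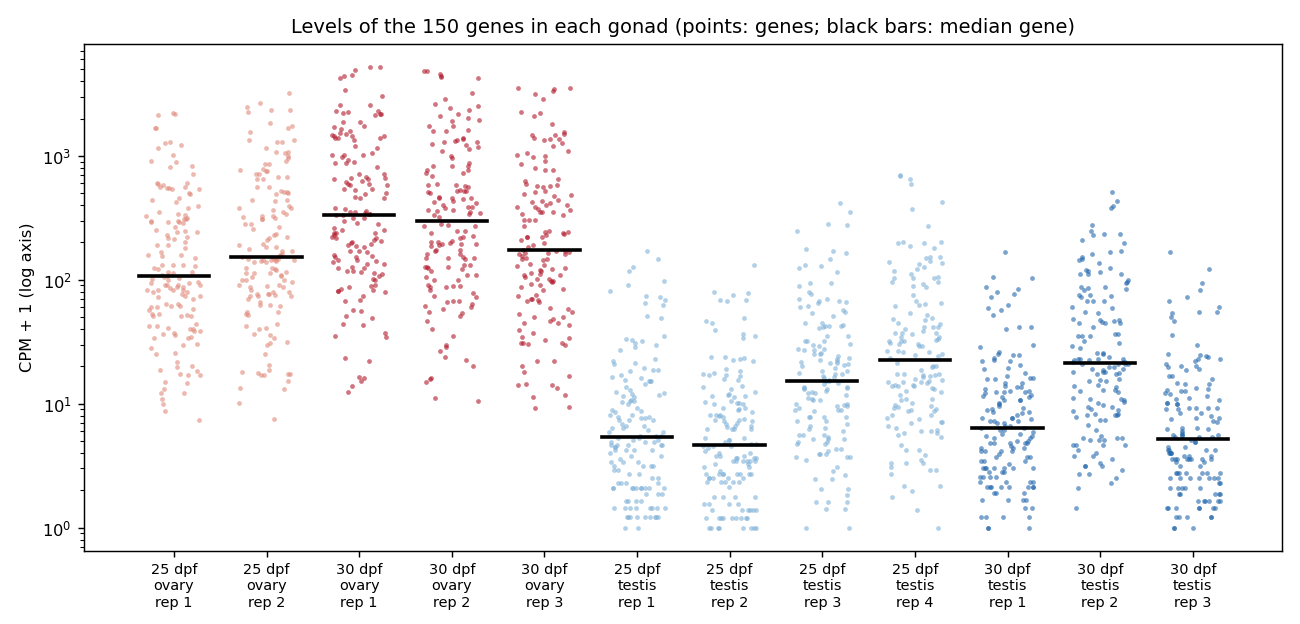
CPM + 1 of each of the 150 genes (points, log axis) in the 12 gonads, coloured by sex and age, with the median gene as a black bar. The bars of the ovaries lie between 105 and 331 CPM, and those of 25 dpf testes 3 and 4 and 30 dpf testis 2 lie above those of the other 4 testes.

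The gene with the largest ratio, 9.96, was *dtx3la*, named for its similarity to Deltex E3 ubiquitin ligases. Its levels were 93.2 and 215 CPM in the 25 dpf ovaries, 625, 377 and 109.8 CPM in the 30 dpf ovaries, 0.215, 0.375, 3.12 and 8.45 CPM in the 25 dpf testes and 1.12, 7.91 and 0.434 CPM in the 30 dpf testes. Although 25 dpf ovary 1 and 30 dpf ovary 3 were the lowest ovaries, they stood more than an order of magnitude above the highest testis. The next gene, *zgc:136254*, was at 354 and 379 CPM in the 25 dpf ovaries, 542, 339 and 349 CPM in the 30 dpf ovaries, 0.215, 1.88, 16.2 and 25.5 CPM in the 25 dpf testes and 6.04, 35.3 and 1.30 CPM in the 30 dpf testes. It was nearly level across 4 of the 5 ovaries and spread over the testes. *ctss2.1*, a cathepsin S type protease, was at 907 and 1081 CPM in the 25 dpf ovaries and 1467, 1744 and 1553 CPM in the 30 dpf ovaries. In testes it was at 73.5, 22.7, 124 and 95.6 CPM in the 25 dpf testes and 72.2, 118 and 35.1 CPM in the 30 dpf testes, and so was well detected in each testis. *ccnp*, a cyclin, was at 816 and 1668 CPM in the 25 dpf ovaries and 2594, 2364 and 1279.8 CPM in the 30 dpf ovaries and at 17.6, 9.004, 40.5 and 103 CPM in the 25 dpf testes and 14.8, 116 and 4.34 CPM in the 30 dpf testes. The remaining genes of the first 12 by ratio were *si:ch211-263m18.4*, ENSDARG00000094370, *zp3a.2*, *zp3e*, *si:ch211-145c1.1*, *si:dkey-152b24.6*, *zp2.1* and *lectin*, with ratios from 8.90 to 6.15.

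The largest group of members with a known role was that of the egg envelope, with 15 of the 23 zona pellucida genes in the table. Their summed level was 9814 to 25749.8 CPM in the 5 ovaries and 160.2 to 1858 CPM in the 7 testes. *zp3e* was at 1666 and 2465 CPM in the 25 dpf ovaries and 4414, 4387 and 3126 CPM in the 30 dpf ovaries, and at 5.37, 9.004, 41.5 and 153 CPM in the 25 dpf testes and 15.2, 245 and 6.72 CPM in the 30 dpf testes. The highest testes, 25 dpf testis 4 and 30 dpf testis 2, were therefore several times the other testes but far under the lowest ovary. *zp3.2* ranged most over the testes, from 0.859 CPM in 25 dpf testis 1 to 87.0 CPM in 30 dpf testis 2, which is 101-fold. Its other levels were 2.44, 12.5 and 31.1 CPM in 25 dpf testes 2, 3 and 4, and 9.62 and 5.20 CPM in 30 dpf testes 1 and 3, against 334 and 763 CPM in the 25 dpf ovaries and 2297, 1589.8 and 798 CPM in the 30 dpf ovaries. *zp3a.1* ranged 99.4-fold over the testes. *zpax1*, of a separate branch of the family, took 4.69% of the members' summed mean CPM in ovaries, the largest share of any member, though CPM is not scaled for gene length. It was at 2138 and 3193 CPM in the 25 dpf ovaries and 5209, 4849 and 3497 CPM in the 30 dpf ovaries, and at 169.5, 74.3, 412 and 651 CPM in the 25 dpf testes and 168, 376 and 121 CPM in the 30 dpf testes. *zp2l2* was at 41.5 and 78.7 CPM in the 25 dpf ovaries, 115, 105 and 83.7 CPM in the 30 dpf ovaries, 11.4, 5.63, 12.05 and 11.7 CPM in the 25 dpf testes and 6.04, 9.84 and 8.24 CPM in the 30 dpf testes, and its testes lay within 2.14-fold of each other. *zp3a.2* was at 1015 to 2189 CPM in ovaries and 2.60 to 146 CPM in testes, and *zp3a.1* at 1216 to 3415 CPM in ovaries and 2.79 to 278 CPM in testes. *zp3*, next to *zp3.2*, was at 587 to 2538 CPM in ovaries and 2.79 to 136 CPM in testes. Of the zp2 genes, *zp2.1* was at 109 to 423 CPM in ovaries and 0 to 16.5 CPM in testes and *zp2.3* at 107 to 529 CPM in ovaries and 0.215 to 22.0 CPM in testes. The zp2 and zp3 genes include close copies that sit side by side. Reads shared between copies are not counted for either, so the levels of single copies and their sum can both be too low.

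Of the 8 non-member envelope genes, 7 were tested between the sexes over both ages with edgeR's quasi-likelihood test. Of these 5 were higher in ovaries and none in testes (adjusted p under 0.05 over all genes), beside 21.9% of the 19292 genes tested that passed toward ovaries and 21.3% that passed toward testes. The median log2 difference of the 7 was 1.71, and that of all genes was -0.13. *zpax2* had a log2 difference of 2.77 (SE 0.30, adjusted p = 7.2e-05), *zp3f.2* of 2.78 (SE 0.35, adjusted p = 1.5e-04) and *zp3d.1* of 1.71 (SE 0.27, adjusted p = 5.5e-04), all from the same edgeR fit.

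Transcription factors numbered 8, with a summed level of 850.3 to 2408 CPM in the 5 ovaries and 51.8 to 227 CPM in the 7 testes. In zebrafish Pou5f3 and Nanog, together with Sox19b, open the embryonic genome for its first transcription, and Foxh1 carries Nodal signals. *pou5f3* was at 95.3 and 220.1 CPM in the 25 dpf ovaries and 654, 461 and 197 CPM in the 30 dpf ovaries, and at 0.430, 0.750, 12.5 and 12.5 CPM in the 25 dpf testes and 2.24, 20.5 and 2.60 CPM in the 30 dpf testes. Its levels in 25 dpf testes 1 and 2 lay near the floor of 3 counts. *nanog* was at 219.9 and 394 CPM in the 25 dpf ovaries and 868, 725 and 422 CPM in the 30 dpf ovaries, and was above that floor in every testis, at 28.8, 22.7, 56.5 and 73.7 CPM in the 25 dpf testes and 23.7, 65.9 and 23.8 CPM in the 30 dpf testes. *foxh1* was at 37.3 and 62.0 CPM in the 25 dpf ovaries, 89.1, 66.5 and 49.2 CPM in the 30 dpf ovaries, 2.36, 0, 4.36 and 9.99 CPM in the 25 dpf testes and 1.12, 5.77 and 1.08 CPM in the 30 dpf testes. *zglp1*, a zinc finger factor that in mouse directs germ cells toward oogenesis, was at 292 and 329 CPM in the 25 dpf ovaries and 455, 414 and 365 CPM in the 30 dpf ovaries. Its testes, at 79.5, 21.6, 64.0 and 90.6 CPM in the 25 dpf testes and 78.9, 81.3 and 53.1 CPM in the 30 dpf testes, were 5.53-fold under the ovaries by means, and only *pfkfb1* had a smaller fold. *GTF3A* (ENSDARG00000071583), the factor that starts transcription of 5S ribosomal RNA, was at 72.4 to 204 CPM in ovaries and 1.52 to 12.6 CPM in testes. *msgn1*, a factor of the presomitic mesoderm of embryos, was at 14.1 to 34.5 CPM in ovaries and 0.645 to 3.74 CPM in testes. *snai3*, of the Snail family of repressors, was low throughout, at 11.3 to 16.4 CPM in ovaries and 0.188 to 3.22 CPM in testes.

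A list of 14 oocyte transcription factors, of which 10 matched by symbol, held 4 of these members, *pou5f3*, *nanog*, *foxh1* and *zglp1*. Its *lhx8a* did not match, so *LHX8*, outside the members at rank 154, was not counted. *LHX8* was at 362 to 616 CPM in ovaries and 33.0 to 133 CPM in testes. Of the other 6 matched genes, 5 were higher in ovaries and none in testes by edgeR. Over all genes 21.9% passed toward ovaries and 21.3% toward testes. *sox19b* was at 104 to 575 CPM in ovaries and 15.997 to 50.3 CPM in testes, with a log2 difference of 3.30 (SE 0.42, adjusted p = 1.7e-04). *TBPL2*, the TATA-binding protein relative of oocytes, had 1.75 (SE 0.20, adjusted p = 9.0e-05) and *foxr1* 2.64 (SE 0.34, adjusted p = 1.8e-04) in the same edgeR fit. The exception was *foxl2l*, a marker of germ cells committed to the female fate, at 30.7 to 164 CPM in ovaries and 21.2 to 301 CPM in testes, with an edgeR log2 difference of -0.53 (SE 0.48, adjusted p = 0.39).

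The mRNA storage and translation group held 9 members with a summed level of 6949 to 17729 CPM in the 5 ovaries and 273 to 2209 CPM in the 7 testes. *ZAR1*, which binds stored maternal mRNAs, was at 1278 and 1565 CPM in the 25 dpf ovaries, 2574, 2604 and 2223 CPM in the 30 dpf ovaries, 47.7, 34.0, 177 and 421 CPM in the 25 dpf testes and 51.4, 235 and 53.6 CPM in the 30 dpf testes. Its 30 dpf ovaries were all above its 25 dpf ovaries, and 25 dpf testis 4 was the highest testis. *CPEB1*, which binds the cytoplasmic polyadenylation element of stored mRNAs, was at 555 and 1158 CPM in the 25 dpf ovaries and 2184, 1953 and 1365 CPM in the 30 dpf ovaries. Its testes were at 89.8, 45.6, 162 and 202 CPM in the 25 dpf testes and 83.4, 170.2 and 81.1 CPM in the 30 dpf testes. *patl2*, a translational repressor of oocytes in frog and human, was at 295 and 649 CPM in the 25 dpf ovaries, 1650.3, 1398 and 1099.8 CPM in the 30 dpf ovaries, 21.3, 7.13, 59.6 and 102 CPM in the 25 dpf testes and 25.3, 82.5 and 21.0 CPM in the 30 dpf testes. *slbp2*, whose frog counterpart holds histone mRNA in the oocyte, was at 380.0 to 1209.6 CPM in ovaries and 11.4 to 104 CPM in testes. *LSM14B*, a component of stored messenger particles, was at 713 to 2226 CPM in ovaries and 14.4 to 197 CPM in testes. The La-related genes *LARP6* and *larp6b*, named as RNA-binding proteins, were at 884 to 2145 and 601 to 1161 CPM in ovaries. *eef1a1l3*, a translation elongation factor, was at 2213 to 4463 CPM in ovaries and 43.9 to 705 CPM in testes. *LIN28A* (ENSDARG00000016999), which blocks let-7 maturation, was at 28.9 to 117 CPM in ovaries and 2.46 to 9.76 CPM in testes.

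A list of 20 stored maternal mRNA regulators, of which 16 matched by symbol, held 5 of these, *ZAR1*, *LSM14B*, *slbp2*, *larp6b* and *patl2*. Its *cpeb1b* did not match. The member *CPEB1* was therefore not counted, and whether it is that gene was not checked. Of the list's 10 other tested genes, 7 were higher in ovaries and none in testes by edgeR, with a median log2 difference of 2.15. Over all genes 21.9% passed toward ovaries and 21.3% toward testes. *ELAVL2* had 2.22 (SE 0.21, adjusted p = 4.2e-05), *PABPC1L* 2.85 (SE 0.30, adjusted p = 5.9e-05) and *eif4enif1* 2.26 (SE 0.24, adjusted p = 5.9e-05) as log2 differences with edgeR.

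Members of the cell cycle and spindle numbered 7, with a summed level of 4119 to 13445 CPM in the 5 ovaries and 246 to 1109 CPM in the 7 testes. *CCNA1*, the cyclin A of germ cells and early embryos, was at 827 and 1824 CPM in the 25 dpf ovaries and 3022, 2885 and 2092 CPM in the 30 dpf ovaries, and at 30.9, 22.3, 53.8 and 185 CPM in the 25 dpf testes and 28.8, 199 and 19.7 CPM in the 30 dpf testes. *NEK2*, a centrosomal kinase, was at 129 and 234 CPM in the 25 dpf ovaries, 347, 248 and 168 CPM in the 30 dpf ovaries, 32.0, 15.8, 25.97 and 30.9 CPM in the 25 dpf testes and 24.4, 28.0 and 24.3 CPM in the 30 dpf testes. Its testes did not separate in the way those of most members did. *fbxo43*, known as Emi2, which holds the mature egg in metaphase II, was at 114 and 190.0 CPM in the 25 dpf ovaries, 316, 354 and 241 CPM in the 30 dpf ovaries, 20.0, 21.2, 21.0 and 36.3 CPM in the 25 dpf testes and 6.26, 30.8 and 13.4 CPM in the 30 dpf testes. *haus6*, a subunit of the augmin complex of the spindle, was at 488 to 1402 CPM in ovaries and 58.8 to 137 CPM in testes, and its testes lay within 2.33-fold of each other. The alpha-tubulin gene *tuba4l* was at 1666 to 5176 CPM in ovaries and 102 to 593 CPM in testes. *PIF1*, a DNA helicase, was at 79.2 to 588 CPM in ovaries and 6.94 to 24.4 CPM in testes. Of 18 other tested genes of meiotic arrest and maturation, 14 were higher in ovaries and none in testes by edgeR, with a median log2 difference of 1.15. The edgeR log2 differences included *CCNB2* at 3.16 (SE 0.30, adjusted p = 4.1e-05), *aurka* at 2.52 (SE 0.21, adjusted p = 3.3e-05) and *CCNB1* at 2.99 (SE 0.28, adjusted p = 4.2e-05). By contrast 1 of 22 tested genes of meiotic prophase passed, *spo11*, with an edgeR log2 difference of 0.96 (SE 0.24, adjusted p = 0.0074), and the list's median was -0.35, where 21.9% of all genes passed toward ovaries and 21.3% toward testes. None of the 22 passed toward testes, but 5 did without 30 dpf ovary 3 and 2 without 25 dpf ovary 1, and 2 passed toward ovaries without 25 dpf testis 1.

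*h1m*, the maternal linker histone of zebrafish, was at 392 and 509.8 CPM in the 25 dpf ovaries, 1008, 1089 and 568 CPM in the 30 dpf ovaries, 29.7, 16.3, 52.6 and 88.0 CPM in the 25 dpf testes and 11.4, 142 and 21.9 CPM in the 30 dpf testes. In 30 dpf testis 2 it reached 142 CPM, more than in any other testis. *H2BK1*, a histone H2B gene, was at 88.5 to 126 CPM in ovaries and 10.51 to 29.6 CPM in testes. Of 11 other tested genes of maternal chromatin, 6 were higher in ovaries by edgeR, beside 21.9% of all genes. Among them were *npm2a*, a nucleoplasmin, at an edgeR log2 difference of 2.48 (SE 0.26, adjusted p = 6.1e-05), and *KPNA2*, an importin, at 1.30 (SE 0.13, adjusted p = 5.9e-05). The histone chaperone *NASP* was called higher in testes, at -3.20 (SE 0.82, adjusted p = 0.0089) with edgeR, a call that was lost without 25 dpf ovary 2. It was at 12.9 and 9.41 CPM in 25 dpf testes 3 and 4 and at 147 to 289 CPM in the other testes, against 11.3 to 18.3 CPM in ovaries.

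Enzymes of lipid and steroid metabolism made up 6 members, with a summed level of 396 to 1872 CPM in the 5 ovaries and 26.3 to 97.4 CPM in the 7 testes. *CYP11A1* (ENSDARG00000002347), which cleaves the cholesterol side chain as the first step of steroid synthesis, was at 60.4 and 144 CPM in the 25 dpf ovaries and 817, 683 and 435 CPM in the 30 dpf ovaries. Its testes were at 13.3, 6.002, 3.95 and 10.8 CPM in the 25 dpf testes and 1.12, 16.3 and 11.9 CPM in the 30 dpf testes. The 2 younger ovaries were below all 3 older ones, and their ranges did not overlap. *hsd3b2*, which acts on the next steroid intermediate, showed the same order, at 16.3 and 38.7 CPM in the 25 dpf ovaries, 112, 126 and 54.3 CPM in the 30 dpf ovaries, 0.645, 0.188, 0.831 and 3.65 CPM in the 25 dpf testes and 0.224, 3.64 and 0.217 CPM in the 30 dpf testes. The fatty acid elongases *ELOVL3* and *ELOVL4* (ENSDARG00000027495) were at 81.1 to 363 and 24.8 to 55.5 CPM in ovaries. Their testes were at 1.52 to 18.8 and 2.14 to 8.25 CPM. *HSD17B12*, named as a hydroxysteroid dehydrogenase, was at 131 to 237 CPM in ovaries and 8.25 to 44.0 CPM in testes, and *lpcat4*, a lysophospholipid acyltransferase, at 82.1 to 384 CPM in ovaries and 1.501 to 22.0 CPM in testes.

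*retsatl*, named as a retinol saturase, and *RDH10* (ENSDARG00000012369), which oxidizes retinol toward retinoic acid, formed the retinoid group. *retsatl* was at 598 and 787 CPM in the 25 dpf ovaries, 1383, 1299 and 989.9 CPM in the 30 dpf ovaries, 7.74, 16.1, 170.1 and 133 CPM in the 25 dpf testes and 39.4, 93.9 and 22.8 CPM in the 30 dpf testes. Its highest testis was 25 dpf testis 3. *RDH10* was at 552 to 1889 CPM in ovaries and 67.0 to 198 CPM in testes. Of the 4 genes of sugar metabolism, *PYGL*, a glycogen phosphorylase, was at 244 and 435 CPM in the 25 dpf ovaries, 352, 496 and 400.4 CPM in the 30 dpf ovaries, 15.5, 48.0, 43.4 and 64.5 CPM in the 25 dpf testes and 8.50, 24.0 and 9.97 CPM in the 30 dpf testes. All 3 older testes were under 25 dpf testes 2, 3 and 4. *pfkfb1*, which sets the level of a regulator of glycolysis, was at 51.2 and 54.4 CPM in the 25 dpf ovaries, 88.2, 59.4 and 57.9 CPM in the 30 dpf ovaries, 15.3, 14.8, 12.7 and 15.9 CPM in the 25 dpf testes and 14.8, 14.1 and 11.7 CPM in the 30 dpf testes, and was the member with the smallest fold of means. *SLC16A3* (ENSDARG00000045051), a lactate carrier, was at 288 to 1007 CPM in ovaries and 10.2 to 62.8 CPM in testes, and *ppp1r3c2b*, a glycogen-targeting phosphatase subunit, at 69.3 to 201 CPM in ovaries and 4.30 to 20.1 CPM in testes.

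A pair of members belonged to indoleamine synthesis. *TPH1* (ENSDARG00000029432), the tryptophan hydroxylase that makes the serotonin precursor, was at 229.8 and 72.6 CPM in the 25 dpf ovaries, 33.6, 34.4 and 47.3 CPM in the 30 dpf ovaries, 1.29, 2.81, 5.82 and 9.79 CPM in the 25 dpf testes and 1.34, 7.06 and 2.60 CPM in the 30 dpf testes. It was the only member whose 25 dpf ovaries were both above all 30 dpf ovaries, with 25 dpf ovary 1 far above 25 dpf ovary 2. *AANAT*, which acetylates serotonin on the way to melatonin, was at 101 and 112 CPM in the 25 dpf ovaries, 107, 87.3 and 100.3 CPM in the 30 dpf ovaries, 3.22, 5.25, 14.1 and 30.0 CPM in the 25 dpf testes and 3.80, 7.70 and 2.82 CPM in the 30 dpf testes. Its ovaries were the most even of all members, within 1.28-fold of each other.

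Among glycosyltransferases, the globoside-type genes *gbgt1l1* and *gbgt1l4* were at 37.3 to 82.5 and 55.5 to 428 CPM in ovaries. They are neighbours on chromosome 5. The sialyltransferase *st6gal1* was at 32.7 to 80.3 CPM in ovaries and 2.60 to 8.52 CPM in testes, and *st6galnac1.2* at 31.6 to 153 CPM in ovaries and 2.38 to 7.27 CPM in testes. Besides *ctss2.1*, the proteases, lectins and inhibitors held *lectin*, the C-reactive protein gene *crp2*, the protease inhibitor *spink2.1* and the chitinase *chia.4*, with a summed level of 2301 to 5436 CPM in the 5 ovaries and 43.7 to 410.1 CPM in the 7 testes. *lectin* was at 143 to 384 CPM in ovaries and 2.06 to 22.5 CPM in testes, and *crp2* at 538 to 1456 CPM in ovaries and 4.51 to 99.4 CPM in testes. The ubiquitin ligases after *dtx3la* were the fish TRIM genes *ftr81*, at 129 to 648 CPM in ovaries and 2.63 to 23.6 CPM in testes, and *ftr86*, and *TRIM9*, at 97.4 to 161 CPM in ovaries and 11.98 to 32.5 CPM in testes. *TRIM9* lies beside *PYGL* on chromosome 13. The 8 genes of membrane and junction included the claudin *cldng*, the carbonic anhydrase *ca15b* and the scaffold gene *GRIP2* (ENSDARG00000087187). *ca15b* was at 247 and 326 CPM in the 25 dpf ovaries, 986, 987 and 479.9 CPM in the 30 dpf ovaries, 1.07, 1.69, 28.3 and 36.3 CPM in the 25 dpf testes and 2.01, 74.0 and 0.650 CPM in the 30 dpf testes. Its testes fell into 4 low and 3 high ones with a wide gap between them. *cldng* was at 299 to 925 CPM in ovaries and 5.25 to 84.5 CPM in testes. The receptor gene *gpr160* was at 42.7 to 140.3 CPM in ovaries and 0.750 to 8.07 CPM in testes, and the lysosomal channel *MCOLN3* at 30.5 to 79.0 CPM in ovaries and 1.13 to 7.68 CPM in testes. *F2RL1* (ENSDARG00000068856), a protease-activated receptor, was at 17.7 to 80.1 CPM in ovaries and 0.188 to 5.37 CPM in testes. *GRIP2*, was at 62.7 to 144 CPM in ovaries and 2.60 to 16.6 CPM in testes.

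**Figure D2:**
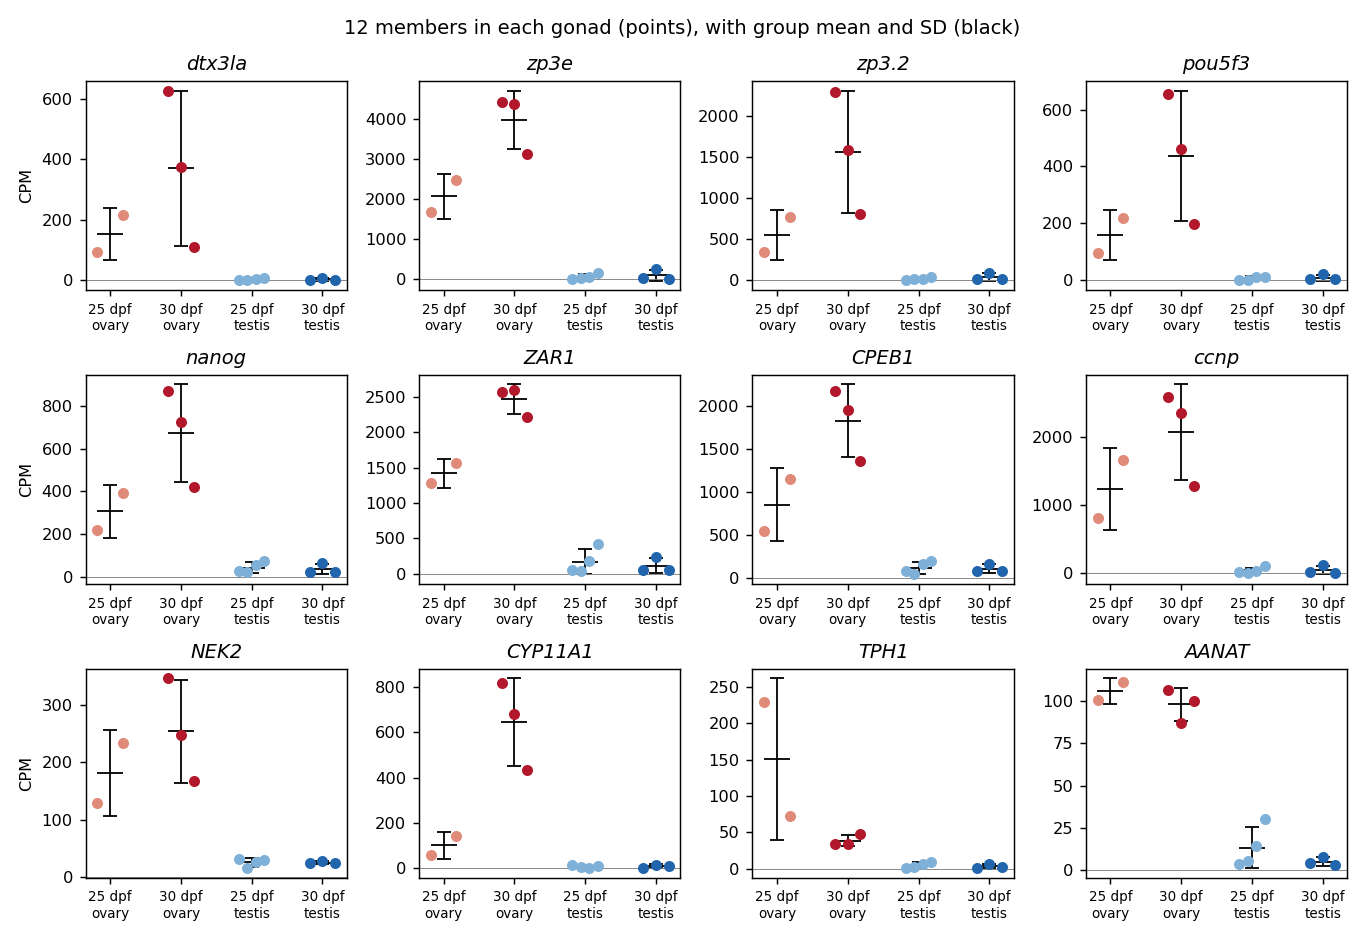
CPM of 12 members (linear axes from 0 or just under it) in each gonad, as points, with the group mean and SD in black over 2, 3, 4 and 3 gonads. *CYP11A1* is higher in each 30 dpf ovary than in either 25 dpf ovary, *TPH1* is the reverse, *AANAT* is level across ovaries, and every testis is below every ovary.

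These roles were assigned to 76 members after the values were seen and carry no test. Of the 150, 54 have only a clone or cDNA name, 7 have no symbol and 74 were given no role, among them *ASAP1* (ENSDARG00000039729), at 2161 to 4251 CPM in ovaries and 67.5 to 692 CPM in testes. The 74 had ovary sums of 13112 to 40589 CPM. *zgc:173556* alone was at 1289.6 and 2244 CPM in the 25 dpf ovaries and 4925, 4793 and 2895 CPM in the 30 dpf ovaries, and at 5.59, 10.9, 78.5 and 152 CPM in the 25 dpf testes and 18.1, 234 and 11.3 CPM in the 30 dpf testes.

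Some members were neighbours. By gene order in the RefSeq annotation of assembly GRCz12tu, matched by symbol, 110 members could be placed, and 38 of them fell in 15 runs with no gap over 10 genes. Chromosome 20 held 16 of the 110, which is 4.13% of its 387 placed eligible genes against 1.33% over all chromosomes. Its runs were *si:dkey-241l7.6*, *si:dkey-241l7.5*, *si:dkey-241l7.3* and *si:dkey-241l7.2* within 5 genes, *zp2.2*, *zp2.3*, *zp2.1* and *zp2.5* within 6, *zp3a.2* beside *zp3a.1*, and *SPATA18* near *ZAR1*. On chromosome 17 *zgc:173556* sat with *zp3* and *zp3.2* within 4 genes, and on chromosome 19 *si:dkeyp-46h3.8*, *si:dkeyp-46h3.3* and *si:dkeyp-46h3.2* lay within 5. On chromosome 9 ENSDARG00000092090, ENSDARG00000094370 and *lectin* lay within 4. In ovaries *si:dkey-241l7.3* was at 8.93 to 21.6 CPM and *si:dkey-241l7.6* at 249 to 659.7 CPM. Genes in such runs can share sequence, and then their reads cannot be given to 1 copy.

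The edge of the set was gradual. The last 3 genes inside were *si:ch73-52f24.4* at a ratio of 2.735, *CACNA2D3* (ENSDARG00000106018) at 2.733 and *si:ch211-241j12.3* at 2.730. The first 3 outside were *sh2d5* at 2.722, *GYG1* (ENSDARG00000011934) at 2.721 and *42sp43*, named for a storage particle protein of frog oocytes, at 2.718. The median ratio was 3.53, and 22 members had a ratio of 5 or more. Genes known from oocytes lay shortly behind, with *buc*, the organizer of the Balbiani body, at rank 163, *GDF9* at 173 and *org* at 241.

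The 7 testes were not alike. Over the members, each testis was compared with the median ovary of the same gene. The median member stood at 2.84%, 1.65%, 7.82% and 10.8% of its median ovary in 25 dpf testes 1 to 4, and at 2.24%, 10.8% and 2.21% in 30 dpf testes 1 to 3. Thus 25 dpf testes 3 and 4 and 30 dpf testis 2 were higher, and both ages held high and low testes. The highest testis was 25 dpf testis 4 for 63 members, 30 dpf testis 2 for 60 and 25 dpf testis 3 for 20. For 106 members these were the 3 highest testes. Among all eligible genes that order held for 5.3%. The order was noticed in these data, and no test was made of it. The summed levels of all 13 roles had the same 3 testes highest. Over the 109 members above 3 counts in every testis, the highest testis was a median of 8.31-fold above the lowest, against 2.89-fold for the ovaries of the same genes.

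The 7 members whose highest testis was another one were *si:dkey-176g4.5*, *NEK2*, *F2RL1*, *snai3*, *styxl1*, *ELOVL4* and *si:ch211-241j12.3*. *si:dkey-176g4.5* was at 158 and 138 CPM in the 25 dpf ovaries, 138, 152 and 107 CPM in the 30 dpf ovaries, 20.4, 10.3, 17.2 and 15.9 CPM in the 25 dpf testes and 21.7, 11.98 and 8.24 CPM in the 30 dpf testes. It was low in 30 dpf testis 2 and highest in 30 dpf testis 1. The testes were most even for *ppt2a.5*, of a palmitoyl-protein thioesterase family, at 3.65, 4.31, 3.32 and 4.42 CPM in the 25 dpf testes and 3.35, 3.64 and 3.903 CPM in the 30 dpf testes, which is a range of 1.33-fold, and for *pfkfb1* at 1.36-fold.

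The summed germ cell markers and the summed testis somatic markers overlapped between these 3 testes and the others. Summed germ cell markers were 2065, 2457 and 1886 CPM in 25 dpf testes 3 and 4 and 30 dpf testis 2, and 2079, 2168, 1978 and 2163 CPM in 25 dpf testes 1 and 2 and 30 dpf testes 1 and 3. Testis somatic markers were at 1315, 1670 and 5652 CPM in the former and 1665, 2374, 2714 and 8858 CPM in the latter. Of the germ cell markers, *NANOS3* and *DND1* alone were higher in each of the 3. *NANOS3* was at 12.3, 13.1 and 13.0 CPM in them and at 4.25 to 7.32 CPM in the others. If the nos3UTR in the reporter's name comes from this gene, reporter reads could be counted for *NANOS3*, which was not tested. *DND1* was at 292, 496 and 271 CPM in them and at 211 to 264 CPM in the others. Blood markers were highest in 30 dpf testis 2, at 3214 CPM, and were 354 to 1237 CPM in the other testes. The part of any of these in the members' levels was not tested.

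**Figure D3:**
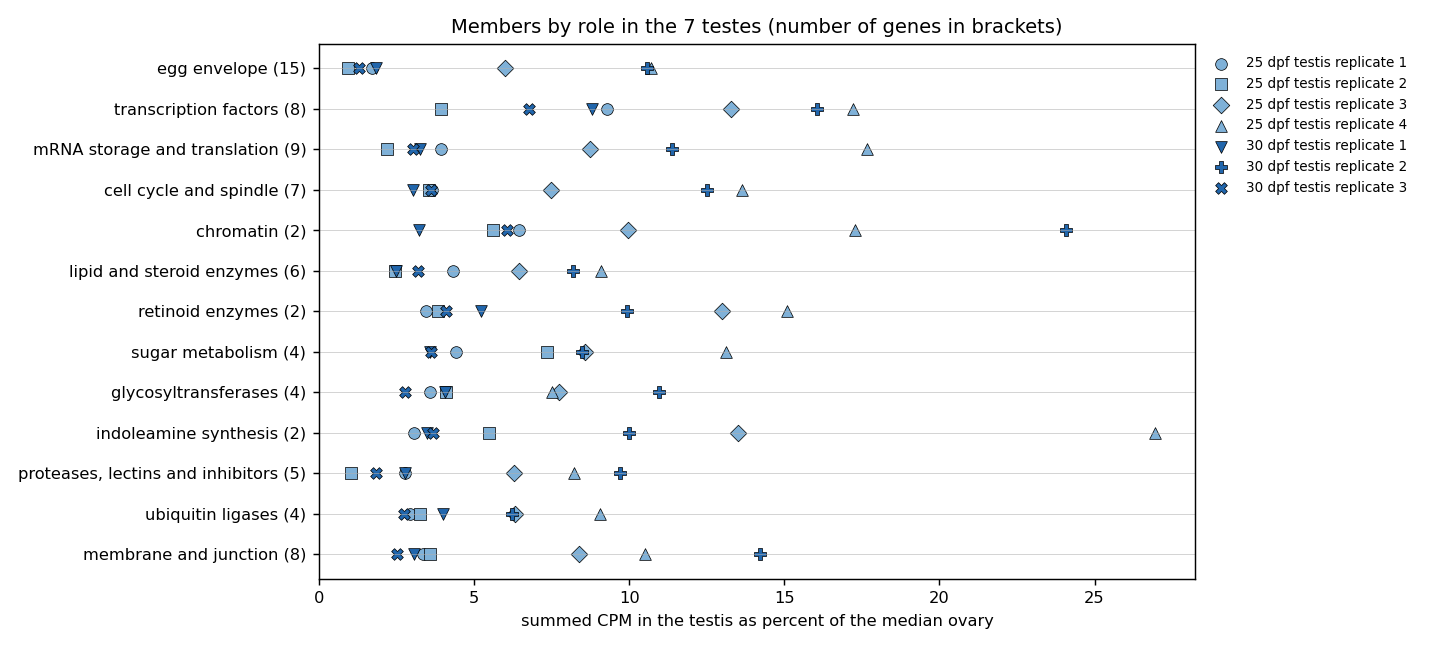
Summed CPM of the members of each role in each of the 7 testes, as a percent of the median ovary (linear axis from 0, 1 symbol per testis). The egg envelope genes lie lowest in 25 dpf testis 2, at 0.923%, and at 10.7% and 10.6% in 25 dpf testis 4 and 30 dpf testis 2.

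The ovaries were ordered as well. For 113 members the lowest ovary was 25 dpf ovary 1, and the highest was 30 dpf ovary 1 for 103 and 30 dpf ovary 2 for 40. In 126 members 30 dpf ovaries 1 and 2 were above the other 3 ovaries, which was so for 13.9% of eligible genes. 30 dpf ovary 3 lay above both 25 dpf ovaries for 91 members, between them for 41 and below both for 18. The place of 30 dpf ovary 3 and the lowest and highest ovary were not counted over all eligible genes. The highest ovary was a median of 3.10-fold above the lowest, against 1.78-fold over all eligible genes. ENSDARG00000095486 spread most, 16.8-fold, at 35.3 and 141 CPM in the 25 dpf ovaries and 592, 269 and 189.7 CPM in the 30 dpf ovaries. The highest ovary was a 25 dpf one for only 7 members, *si:dkey-176g4.5*, *si:ch1073-303d10.1*, *TPH1*, *msgn1*, *si:ch211-157c3.4*, *snai3* and *AANAT*. Markers of other tissues varied over the same ovaries. In 30 dpf ovary 1 pancreas markers summed to 31.8 CPM against 316 to 697 CPM in the other 4, liver markers to 24.1 against 136 to 250.5 CPM and blood markers to 163 against 369.7 to 814 CPM. Genes of meiotic prophase summed to 772 and 1032 CPM in 30 dpf ovaries 1 and 2 against 1185 to 1595 CPM in the other 3. Their part in the order of the ovaries was not tested.

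Age within ovaries was then compared. In 90 of the 150 members every 30 dpf ovary was above every 25 dpf ovary, and in 1, *TPH1*, the reverse held. Over all 19292 genes tested the shares were 11.1% and 21.9%, and over the eligible genes 13.2% had every older ovary higher. The median log2 fold change of the members at 30 against 25 dpf was 1.05, against 0.02 for all genes and 0.68 for the next 150 genes by the same ratio, and it was positive for 147 members against 51.4% of all genes. The ratio that chose the members turned on 25 dpf ovary 1 in 113 of them, so the choice and this comparison share that gonad. The log2 fold change was over 1 for 84 members, while 8.07% of all genes were. No single member passed, however. The edgeR fit estimated the spread of each gene over all 12 gonads, so SEs and p-values for ovaries also carry the spread among testes. Within ages, the median member's log2 of CPM + 1 had an SD of 0.46 over ovaries and 1.11 over testes. With edgeR's quasi-likelihood test, 0 members and 0.0% of all genes were higher or lower at an adjusted p under 0.05, and the smallest adjusted p was 0.28. At an unadjusted p under 0.05 there were 17 members (16 of them higher at 30 dpf), or 11.3%, beside 11.5% of all genes. Without 25 dpf ovary 1 a single gonad was left at that age, and the members' median log2 fold change was 0.78. The count was 5 without 30 dpf ovary 1 (3.33% beside 7.55% of all genes) and 7 without 30 dpf ovary 2 (4.67% beside 8.72%). In both fits the members passed less often than all genes. The count was 39 without 30 dpf ovary 3 (26% beside 13.7%) and 40 without 30 dpf testis 2 (26.7% beside 11.03%). It was 33 without 25 dpf testis 2 (22% beside 12.7%) and 27 without 25 dpf testis 4 (18% beside 11.3%). Without 25 dpf testes 1 and 2 it was 30 (20% beside 12.97%). It also depended on the fit. With only the ovaries in the edgeR fit it was 92 members (91 of them higher), or 61.3% beside 13.2% of all genes. With DESeq2 it was 36 members, or 25.2% beside 12.2%, both as shares of the genes given a p-value. With the replicate block it was 30, or 20.0% beside 11.1%, and without a filter 26, or 17.3% beside 8.21%. The median in these 4 fits was 1.01 to 1.199, and the cause of the difference in counts was not tested. At the adjusted threshold no member passed in any of the edgeR fits. DESeq2 called 2 members higher, *ppt2a.5* (log2 fold change 2.11, adjusted p = 0.00095) and *CYP11A1* (2.87, adjusted p = 0.018), and none lower, where it called 0.956% of its genes higher.

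The members with the largest fold changes were *CYP11A1*, with a log2 fold change of 2.83 (SE 0.84, adjusted p = 0.31) by edgeR, *gbgt1l4* with 2.34 (SE 0.99, adjusted p = 0.41), *zgc:153499* with 2.302 (SE 1.06, adjusted p = 0.44), *zgc:113984* with 2.23 (SE 1.01, adjusted p = 0.43) and ENSDARG00000095486 with 2.18 (SE 1.13, adjusted p = 0.48). *CYP11A1* averaged 102 ± 58.9 CPM (SD, n = 2) and 645 ± 194 CPM (SD, n = 3). *ppt2a.5* had the smallest p of the members, with 2.07 (SE 0.37, adjusted p = 0.28) by edgeR, and was at 13.97 and 17.0 CPM in the 25 dpf ovaries and 42.4, 90.2 and 41.96 CPM in the 30 dpf ovaries. Of the same family, *ppt2a.3* had a log2 fold change of 1.75 (SE 0.72, adjusted p = 0.40) and *ppt2a.1* of 1.30 (SE 0.41, adjusted p = 0.31) by edgeR. At the other end, *TPH1* had a log2 fold change of -1.83 (SE 0.68, adjusted p = 0.36) by edgeR, *msgn1* -0.23 (SE 0.51, adjusted p = 0.902), *si:ch1073-303d10.1* -0.08 (SE 0.89, adjusted p = 0.985), *si:dkey-176g4.5* 0.01 (SE 0.36, adjusted p = 0.995) and *AANAT* 0.04 (SE 0.66, adjusted p = 0.989). *TPH1* was at -0.77 without 25 dpf ovary 1 and at -2.40 without 25 dpf ovary 2, and ENSDARG00000095486 at 3.54 without 25 dpf ovary 2. The median over the members stayed between 0.78 and 1.43 when each of the 12 gonads was left out, and was lowest without 25 dpf ovary 1. With 2 gonads at 25 dpf, of which 1 was the lowest ovary for most members, the ages rest on few animals.

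**Figure D4:**
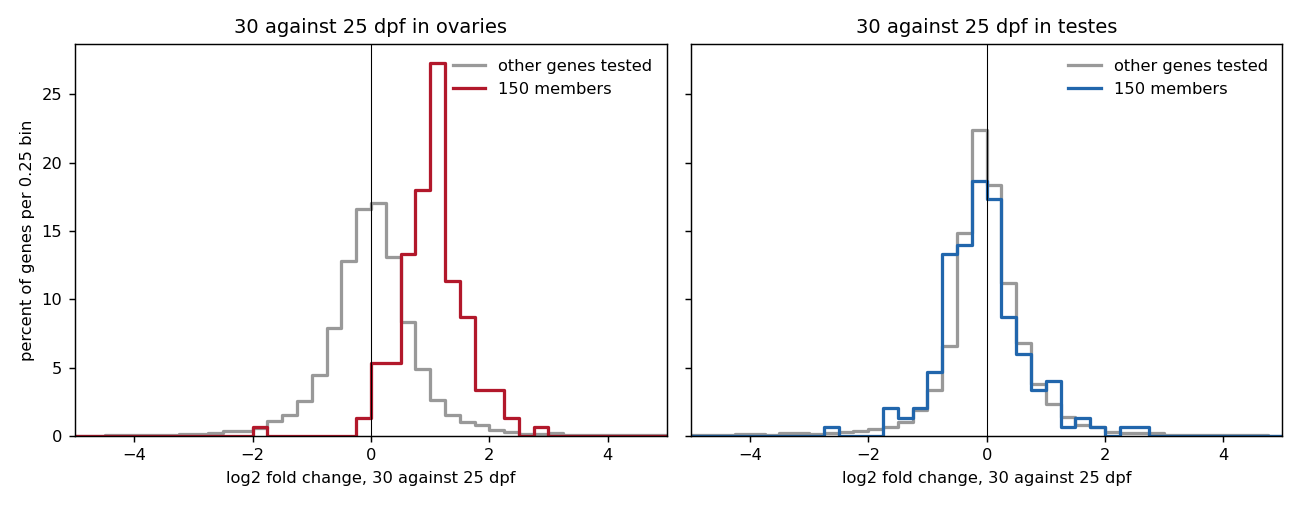
Distribution of log2 fold changes at 30 against 25 dpf (edgeR) in ovaries and in testes, as percent of genes per bin, for the 150 members (coloured) and the other genes tested (grey). In ovaries the members centre on 1.05 and in testes on -0.08, close to the other genes.

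In testes the ages did not separate the members. In 0 members were all 30 dpf testes above all 25 dpf testes, and in 0 the reverse, where 6.26% and 5.0% of all genes showed these. The median log2 fold change was -0.08, against -0.04 for all genes. With edgeR, no member was higher (0.00518% of all genes, which is 1 gene) or lower (0.0%) at an adjusted p under 0.05, and 4 had an unadjusted p under 0.05 beside 13.0% of all genes. That count was 39 without 30 dpf testis 2, or 26% beside 9.48% of all genes. It was 10 without 25 dpf testis 4 (6.67% beside 12.5%) and 9 without 25 dpf testis 2 (6% beside 12.4%). Without 25 dpf testis 3 it was 2 (1.33% beside 12.2%). Without 25 dpf testes 1 and 2 it was 23 (15.3% beside 10.996%). DESeq2 called 1 member lower, *PYGL* (log2 fold change -1.57, adjusted p = 0.032), beside 0.881% of its genes lower. The median depended on single testes. It was -1.23 without 30 dpf testis 2 and 0.36 without 25 dpf testis 4, and -0.66 without 25 dpf testes 1 and 2. The largest values were those of *si:dkeyp-98a7.3*, 2.66 (SE 1.22, adjusted p = 0.38), *si:ch73-132k15.2*, 2.29 (SE 0.90, adjusted p = 0.32), *zp2.3*, 1.92 (SE 1.095, adjusted p = 0.50), *zp2.5*, 1.57 (SE 1.09, adjusted p = 0.59), and *zp3.2*, 1.56 (SE 1.07, adjusted p = 0.58), as log2 fold changes with edgeR. All 5 were highest in 30 dpf testis 2. Without that testis they were 0.35, 0.22, -0.83, -1.41 and -0.66 in the same order, and without 25 dpf testis 4 they were 4.19, 3.05, 4.04, 2.49 and 2.73. The lowest were ENSDARG00000092090, -2.56 (SE 1.26, adjusted p = 0.42), its neighbour ENSDARG00000094370, -1.69 (SE 1.12, adjusted p = 0.57), *PYGL*, -1.59 (SE 0.48, adjusted p = 0.23), *si:ch73-303b9.1*, -1.58 (SE 0.90, adjusted p = 0.50), and *AANAT*, -1.45 (SE 0.64, adjusted p = 0.37), from the same edgeR fit. Without 25 dpf testis 4 ENSDARG00000092090 was at -1.04, ENSDARG00000094370 at 0.014, *si:ch73-303b9.1* at -0.54 and *AANAT* at -0.65.

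Whether the gap between ovary and testis changed with age was tested as an interaction. The median log2 change of the gap among the members was 1.13, toward ovaries at 30 dpf, against 0.05 for all genes and 1.02 for the next 150, and it was positive for 139 members against 52.7% of all genes. The choice of members shares gonads with this comparison too. The lowest ovary was 25 dpf ovary 1 for 113 members, and the highest testis was 25 dpf testis 4 for 63 and 30 dpf testis 2 for 60. No member passed in edgeR in either direction, like 0.0% of all genes. The count at an unadjusted p under 0.05 was 16, all with a wider gap at 30 dpf, or 10.7% beside 10.1% of all genes. *ppt2a.5* had the smallest p, with 2.21 (SE 0.49, adjusted p = 0.39) by edgeR, and was the 1 member that DESeq2 called (2.24, adjusted p = 0.034), beside 0.532% of its genes with a wider gap. The median was 2.28 without 30 dpf testis 2, where 79 members had an unadjusted p under 0.05, or 52.7% beside 9.75% of all genes. It was 0.62 without 25 dpf testis 4, where 9 had (6% beside 9.94%), and 1.71 without 25 dpf testes 1 and 2, where 49 had (32.7% beside 10.8%). Without 25 dpf ovary 1 it was 0.87. The count was 6 without 30 dpf ovary 1 (4% beside 7.73%), 8 without 30 dpf ovary 2 (5.33% beside 8.17%) and 30 without 25 dpf testis 2 (20% beside 11.2%). Without 30 dpf testis 1 it was 9 (6% beside 10.2%), and without 30 dpf testis 3 it was 8 (5.33% beside 8.58%).

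As matched by symbol, several other oocyte pathways held no member or 1. The list of germ plasm and the Balbiani body had 15 symbols, of which 12 matched. Its *grip2a* did not match. The member *GRIP2* was therefore not counted, and whether it is that gene was not checked. All 13 tested genes of the list were non-members. Of these 12 passed toward ovaries and 1 toward testes by edgeR, with a median log2 difference of 1.61. *buc* had 3.06 (SE 0.31, adjusted p = 5.1e-05), *DND1* 1.61 (SE 0.18, adjusted p = 8.2e-05) and *IGF2BP3* 1.91 (SE 0.22, adjusted p = 9.0e-05) as log2 differences in that edgeR fit. Of 12 piRNA pathway genes, 10 passed toward ovaries and 1 toward testes, with a median of 0.98, and *PIWIL1*, whose regulatory sequence drives the reporter of these fish, had 1.03 (SE 0.08, adjusted p = 3.0e-05) by edgeR. The 3 oocyte growth factors all passed, *GDF9* with 2.61 (SE 0.24, adjusted p = 4.0e-05), *bmp15* with 2.84 (SE 0.34, adjusted p = 1.2e-04) and *gdf3* with 3.27 (SE 0.54, adjusted p = 7.1e-04) by edgeR. Among maternal-effect genes besides the member *ca15b*, 6 of 12 passed toward ovaries and 1 toward testes, and *org* had 2.37 (SE 0.18, adjusted p = 2.9e-05) by edgeR. The list named for lipoprotein receptors, which also held *stab2*, counted 4 of 6 higher in ovaries and 1 in testes, with a median of 1.43. Genes of mitochondrial organization counted 5 and 1 of 13, with a median of 0.28. Beside these, 21.9% of all genes passed toward ovaries and 21.3% toward testes. The mitochondrial count toward ovaries was 2 without 25 dpf ovary 1 and 2 with upper-quartile scaling. The single calls toward testes were lost without 25 dpf ovary 2 in the germ plasm, piRNA and lipoprotein receptor lists, and each of these was also lost without 1 or more other gonads. *pld6*, of both the piRNA and the mitochondrial list, was at 131 to 280.4 CPM in ovaries and 162 to 239 CPM in testes, with an edgeR log2 difference of 0.44 (SE 0.16, adjusted p = 0.044), and ranked 5128 of the eligible genes by the ratio.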

How the data were processed

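Single ovaries and testes of juvenile zebrafish were profiled by RNA-seq of amplified cDNA. The deposited values are whole-number counts of reads per gene. The authors aligned reads with HISAT2 2.0.5 to GRCz11, removed duplicates with Picard and counted exon reads with HTSeq 0.9.1 in its reverse-strand setting. If the amplified libraries did not keep strand, that setting leaves out reads of the other strand, and overlapping antisense genes cannot be told apart. Removing duplicates caps the counts of very abundant transcripts, and reads shared by near-identical genes are not counted for either. FastQC 0.11.8, MultiQC 0.9 and SAMtools 1.5 are also in the submitters' processing notes. Each gonad had 4471588 to 5331223 counts, and 3 counts were taken as the floor.

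CPM was computed from the column totals. Age, sex and their interaction were tested over 4 groups with edgeR 4.0.16 in R 4.3.3 (TMM scaling, filterByExpr, quasi-likelihood F-test, Benjamini-Hochberg adjustment over 19292 genes, threshold 0.05), and DESeq2 1.42.0 was an alternative. The SE beside an edgeR log2 value is not an output of that test. It was taken as the absolute log2 value divided by the square root of the F statistic. Other scaling, filters, pseudocounts, a replicate block and leaving out each gonad were also tried. Samples with equal replicate numbers did not deviate together (15 pairs, correlations from -0.23 to 0.14), so they were not paired.

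The members and gene lists were chosen with earlier results of these data known, and roles were given after the values were seen. Members named in the text are the 12 with the largest ratio, those in a pathway list, the 5 highest and 5 lowest age fold changes in each sex, those at the threshold and those in neighbour runs. Others, and *amh*, *pld6*, *foxl2l*, *NASP*, *NANOS3*, *nanos2*, *DAZL*, *spo11*, *tfa*, *apoa2*, *gsdf*, *insl3* and *stab2*, were named after their values were seen. Up to 3 other genes per list were named by smallest p. List and marker genes were matched by symbol, so genes carried under another name were left out of the lists. Symbols are those of the name table used here, some in the capitals of orthologues, and 12 members share theirs with another gene, so their identifiers are given. ENSDARG00000092090 and ENSDARG00000094370 have clone names but are also given by identifier. The values of 1 member are not reported here by name.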

Additional observations from a re-analysis of the deposited data

Results flagged for a closer look

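Marker sums of other tissues in 25 dpf testes stood far from the other 3 testes of the group, by Dixon's criterion. Muscle markers summed to 8088 CPM in 25 dpf testis 1 against 92.0 to 133 CPM in the others. Pancreas markers summed to 5120 CPM in 25 dpf testis 2 against 328 to 1005 CPM, and intestine markers to 838 CPM against 46.5 to 159 CPM. Of 36 sums examined these 3 passed, and chance passes about 1 in 20. These 2 testes were among the lower ones for the members, and the part of other tissue in that was not tested. The criterion was applied to the 25 dpf testes only. Of the testes higher for the members, 25 dpf testis 4 had liver markers at 1954 CPM. 30 dpf testis 2 had liver markers at 1294 CPM, of which *tfa* alone was 1255 CPM, and pancreas markers at 2517 CPM. Leaving out 25 dpf testes 1 and 2 kept 147 of the 150 members. Each was the highest testis for only 2 members, so this could change the set little.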

How the results depend on the processing

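No count of members at an adjusted p under 0.05 changed except with DESeq2, which called 2 higher in ovaries at 30 dpf, 1 lower in testes and 1 with a wider gap. The edgeR counts at an unadjusted p under 0.05 did change. In ovaries the count was 17 as reported (11.3% of members beside 11.5% of all genes) and 92 with only the ovaries fitted (61.3% beside 13.2%). Without 30 dpf testis 2 it went from 4 (2.67% beside 13.0%) to 39 (26% beside 9.48%) in testes. For the interaction it went from 16 (10.7% beside 10.1%) to 79 (52.7% beside 9.75%) without that testis. Leaving out each gonad moved the median log2 fold change of the members from 0.78 to 1.43 in ovaries, from -1.23 to 0.36 in testes and from 0.62 to 2.28 for the interaction, and the genes called higher in testes from 2139 (without 25 dpf ovary 2) to 4245. With the replicate block these medians were 1.199, 0.25 and 0.91, and no member was called.

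Of the named fold changes, 4 near 0 in ovaries and 4 of the highest or lowest in testes changed sign. In ovaries the range over gonads left out was -0.65 to 0.43 for *msgn1*, -0.40 to 0.14 for *si:ch1073-303d10.1*, -0.13 to 0.16 for *si:dkey-176g4.5* and -0.086 to 0.16 for *AANAT*. With upper-quartile scaling *si:dkey-176g4.5* was -0.0649 and *AANAT* -0.023. *si:dkey-176g4.5* was -0.024 with only the groups compared and -0.011 without 25 dpf testes 1 and 2, and *AANAT* was -0.0197 with the block. In testes the ranges were -0.66 to 2.73 for *zp3.2*, -1.41 to 2.49 for *zp2.5*, -0.83 to 4.04 for *zp2.3* and -2.19 to 0.014 for ENSDARG00000094370, which was 0.23 with the block. The other 2 of the 5 highest in testes ranged from 0.35 to 4.19 (*si:dkeyp-98a7.3*) and from 0.22 to 3.05 (*si:ch73-132k15.2*). For the egg envelope genes the low end was without 30 dpf testis 2. The causes were not tested.

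Of the 150 members, 146 were chosen on TMM-scaled CPM, 141 with a pseudocount of 0.1, 133 with 5, 144 and 130 with a minimum of 1 and 20 CPM, and 101 on group means. Leaving out a gonad kept 111 (25 dpf ovary 1) to 150. Alternatives on protein and promoter sequence were not run. Near 3 counts a level in testes is set by few reads, and 2 ovaries at 25 dpf limit the age comparison.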
